A study of Homo sapiens with 12 samples.

Results

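The untreated cells of the 2 lines of a geniposide study were compared with each other: 3 libraries labelled HepG2 and 3 libraries labelled Huh7, which are 6 of the study's 12 samples. Geniposide is an iridoid glycoside of gardenia fruit, and the other 6 libraries, 3 of each line, came from cells given it. HepG2 and Huh7 are established human cell lines that were derived from liver tumours. All 6 libraries used here are of untreated control cells, share the batch label of 48 h, and were made from poly(A)-selected RNA with a kit that does not mark strand. The labels name neither passage nor an identity test for the cells, and leave it unsaid whether each line was grown as 3 separate cultures, so that the p-values cover the spread among these libraries alone, possibly a technical one. Of 58735 genes in the deposited table, 14120 reached 1 FPKM (fragments divided by gene length and by sequencing depth) or more in at least 3 of the 6 libraries, and 11723 of these were protein-coding.

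Hepatocytes make most of the proteins of blood plasma, among them albumin, the apolipoproteins and fibrinogen, and run the urea cycle and much of the body's glucose and lipid traffic. A set of transcription factors that includes HNF4A holds this programme on, and liver tumour lines usually keep part of it. Cells also carry a record of their origin in their keratins, their adhesion proteins and their homeobox genes, which is why these groups are described below beside metabolism.

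The lines differed in most of what they express. Of the 14120 genes tested, 11463 (81.2%) differed at an adjusted p under 0.05 (limma on log2(FPKM + 1), Benjamini-Hochberg), of which 5786 (41%) were higher in the HepG2-labelled libraries and 5677 (40.2%) in the Huh7-labelled libraries. With a difference of at least 2-fold as well, meaning 1 or more on the log2(FPKM + 1) scale, 2148 genes (15.2%) were higher in the HepG2-labelled and 1865 (13.2%) in the Huh7-labelled libraries. The highest adjusted p among those 4013 genes was 0.0478. At 8-fold or more, 361 genes were higher in the HepG2-labelled and 177 in the Huh7-labelled libraries. A gene that passed the filter only through the line where it is high tends to differ by construction. On average, 1300 genes were at 1 FPKM or more in the HepG2-labelled libraries only and 1714 in the Huh7-labelled libraries only. Among the 11080 genes at 1 FPKM or more on average in both lines, 1203 (10.9%) were at least 2-fold higher in the HepG2-labelled libraries and 666 (6.01%) in the Huh7-labelled libraries. These shares are the background for the counts of each gene group below.

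The scale of the deposited values bears on the balance of the 2 directions. Fragments per library ranged from 15056655 to 16880930. Rescaling the same values to 1 fixed sum per library (TPM) moved the median difference over all tested genes to -0.27, made the HepG2-labelled libraries higher in 37.3% of the called genes against 50.5% as deposited, and gave 2029 and 2983 genes at least 2-fold higher in the HepG2-labelled and Huh7-labelled libraries. A fit to the recovered fragments gave 37.2% higher in the HepG2-labelled libraries, and a filter at 5 FPKM gave 55.5%. Differences within about 0.3 of 0 are therefore tied to the scale, and the groups below are described mainly by genes that differ by more. Libraries of 1 line correlated at 0.990 to 0.992 over the tested genes and libraries of different lines at 0.717 to 0.719. Long noncoding RNA took 1.65% to 1.70% of fragments in the Huh7-labelled and 1.09% to 1.15% in the HepG2-labelled libraries, and its part in the differences was not tested.

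**Figure D1:**
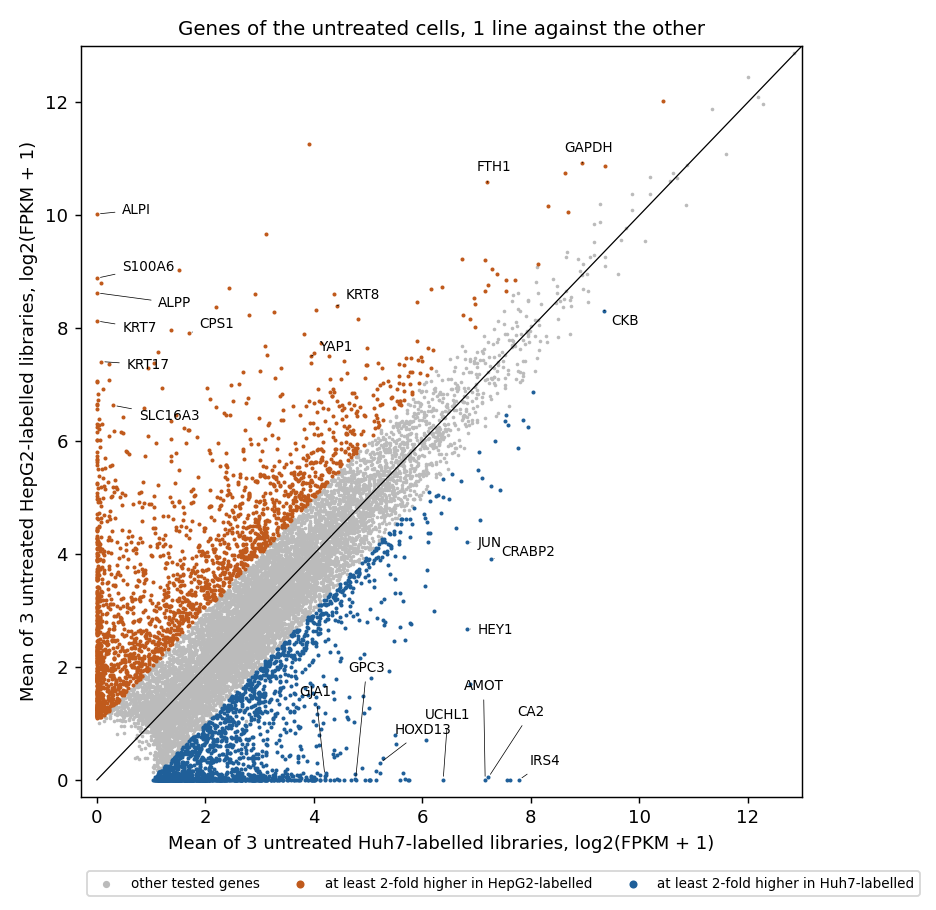
Mean level of each tested gene in the 3 untreated HepG2-labelled libraries (vertical axis) against the 3 untreated Huh7-labelled libraries (horizontal axis), both as log2(FPKM + 1), with Y-linked genes and the X-inactivation transcript left out. Coloured points are called genes at least 2-fold higher in 1 line, and many of both colours lie along an axis, at or near 0 in the other line.

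The defining products of hepatocytes were at or near 0 in both lines. ALB, which encodes albumin, was at 0 in all 3 HepG2-labelled libraries and had 2 fragments over the 3 Huh7-labelled libraries. AFP, the fetal counterpart of albumin that liver tumours often make, had no fragment in any of the 6 libraries, and the same held for APOB, the main protein of low-density lipoprotein. TTR, the carrier of thyroid hormone, had 0 and 3 fragments over the HepG2-labelled and Huh7-labelled libraries, and SERPINA1, the plasma inhibitor of neutrophil elastase, had 9 and 3. Of 20 secreted hepatocyte proteins looked up, 18 did not reach the filter, and 4 had no fragment in any library. The 2 tested ones were C3, the central complement protein, at 27.3, 28 and 27.1 FPKM in the HepG2-labelled and 0.825, 0.742 and 0.790 FPKM in those of Huh7, together with VTN, the adhesion protein vitronectin of plasma, at a mean of 4.78 and 0.0976 FPKM. The summed level of all 20 was 32.7 to 34.1 FPKM in the HepG2-labelled and 1.27 to 1.60 FPKM in the Huh7-labelled libraries, most of it C3. The defining markers of the labelled cell type were therefore absent or nearly so in both lines, which are called here by their labels alone.

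The regulators of the liver programme were mostly low as well. HNF4A, the nuclear receptor at the head of the hepatocyte programme, was at 0.331, 0.198 and 0.228 FPKM in the HepG2-labelled and 0.00790, 0.00813 and 0.0330 FPKM in the Huh7-labelled libraries, under the filter in both. Of 17 hepatocyte transcription factors, 7 were tested, 2 of them at least 2-fold higher in each line. CEBPB, a leucine zipper factor of acute-phase and many other responses, was higher in the HepG2-labelled libraries (117, 120 and 110 against 21.7, 17.8 and 19.9 FPKM), and so was FOXA1, a pioneer factor of many epithelia (5.29 ± 0.474 against 0.886 ± 0.0830 FPKM, SD, n = 3). CEBPA, the related factor of differentiated liver and fat, was higher in the Huh7-labelled libraries (12.4 against 4.47 FPKM), as was PROX1, a homeobox factor of liver, lymphatic vessels and neurons (1.27 FPKM against 0).

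Some enzymes of liver metabolism were abundant all the same. CPS1, the first enzyme of the urea cycle, was at 245, 237 and 236 FPKM in the HepG2-labelled libraries and at 2.31, 2.20 and 2.18 FPKM in the Huh7-labelled libraries, a difference of 6.22 ± 0.03 (SE) on the log2(FPKM + 1) scale. ASS1, a later enzyme of the same cycle, was at 146 and 23.3 FPKM, and HPD, an enzyme of tyrosine breakdown, at 18.7 and 0.504 FPKM. GLUL, glutamine synthetase, went the other way, with 8.27 FPKM in the HepG2-labelled and 38.1 FPKM in the Huh7-labelled libraries. These were 4 of the 5 tested members among 21 hepatocyte enzymes, and OTC, the urea cycle enzyme between CPS1 and ASS1, had no fragment in the HepG2-labelled libraries, as was the case for TAT, G6PC and CYP7A1. Of these, TAT, an enzyme of tyrosine breakdown, had the most fragments over the 3 Huh7-labelled libraries, 10.

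Genes of fetal liver and liver tumours were split between the lines. The list of 18 had 10 tested members, 3 and 4 of them at least 2-fold higher in the HepG2-labelled and Huh7-labelled libraries. The matching shares of all tested genes were 15.2% and 13.2%. Another 8 did not reach the filter, and 3 members had no fragment in any library. Only 3 of the 10 averaged 1 FPKM or more in both lines, and 1 of these was at least 2-fold apart. H19, an imprinted noncoding RNA, was at 68.9, 79.6 and 66.3 FPKM in the HepG2-labelled and 0.319, 0.103 and 0.313 FPKM in the Huh7-labelled libraries. PEG10, a retrotransposon-derived imprinted gene, was at 39.5 and 0.0860 FPKM, and CD24, a sialoprotein of progenitor cells and carcinomas, at 94.9 and 0.840 FPKM. In the opposite direction, GPC3, the cell-surface proteoglycan used as a tissue marker of hepatocellular carcinoma, was at 0 in the HepG2-labelled libraries and at 27.6, 25.4 and 25.8 FPKM in the Huh7-labelled libraries. LIN28B, which blocks the maturation of let-7 microRNAs, was at 0.0112 and 17.4 FPKM, and IGF2BP1, an RNA-binding protein of fetal tissue, at 8.89 and 44.3 FPKM. No group of 3 overlapped the other for any of these 6 genes, which were named for their large differences. The same held for 11691 of the 14120 tested genes.

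**Figure D2:**
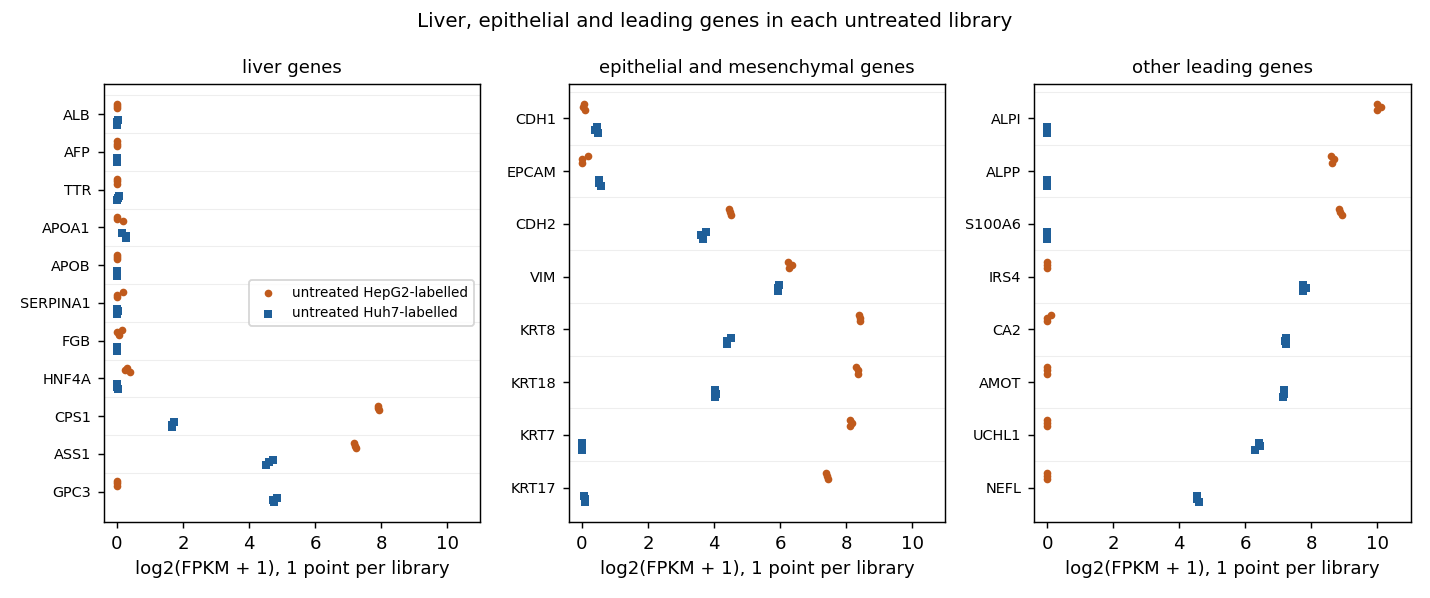
Level of liver, epithelial and leading genes in each of the 6 untreated libraries, as log2(FPKM + 1), with HepG2-labelled libraries as circles and Huh7-labelled libraries as squares. Liver products from ALB to HNF4A lie near 0 in all 6 libraries, and the 3 libraries of a line lie close together for the genes that differ.

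Among protein-coding genes, the largest differences towards the HepG2-labelled libraries included those of ALPI, S100A6, PRSS56, ALPP, KRT7, S100A4, KRT17, CTSZ, TM4SF1, IGFBP3, WISP2, CA9, PLP2 and PRSS21. ALPI, annotated as the intestinal alkaline phosphatase, was at 1006, 1091 and 1022 FPKM in the HepG2-labelled libraries and at 0 in all 3 Huh7-labelled libraries. S100A6, a calcium-binding protein of many proliferating cells, was at 490, 467 and 461 FPKM against 0, which is at least 2585-fold higher against a floor of 3 fragments per library. KRT7, a keratin of ducts and glands, was at 274, 286 and 276 FPKM against 0. CA9, a carbonic anhydrase known for its induction under low oxygen, was at 108, 112 and 96.7 FPKM against 0, 0 and 0.0362 FPKM. The highest Huh7-labelled mean among these genes was 1.89 FPKM, that of S100A4, a relative of S100A6 known from fibroblasts and motile cells, and the lowest HepG2-labelled mean was 93.9 FPKM, that of PRSS21, a serine protease of testis.

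The 15 largest differences towards the Huh7-labelled libraries were those of IRS4, CA2, AMOT, UCHL1, NID1, BEX4, ID4, HAND1, MAGED1, MDK, ISYNA1, CXorf57, NKX2-5, UNCX and MSX2. IRS4, an adaptor of insulin-family receptors, was at 216, 229 and 213 FPKM in the Huh7-labelled libraries and at 0 in all 3 HepG2-labelled libraries, at least 4252-fold higher against the same floor. CA2, a cytosolic carbonic anhydrase, was at 148, 145 and 150 FPKM against 0, 0 and 0.0981 FPKM. AMOT, a scaffold protein that binds YAP at cell junctions, was at 143, 143 and 140 FPKM against 0. UCHL1, a deubiquitinating enzyme of neurons, was at 84.3, 85.3 and 78.2 FPKM against 0, at least 931-fold higher. 5 further genes of this set are transcription factors or their inhibitors: HAND1 (47.4 FPKM) and NKX2-5 (36.4 FPKM) of the early heart, UNCX (31.9 FPKM) of somites, MSX2 (31.8 FPKM) of the skull and limb, and ID4 (50.4 FPKM), a helix-loop-helix inhibitor of the nervous system, of which NKX2-5 had the highest HepG2-labelled mean, 0.0862 FPKM.

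ALPI is 1 of 3 related alkaline phosphatase genes that lie side by side on chromosome 2. It was at a mean of 1040 FPKM, ALPP, the placental enzyme, at 394 FPKM and ALPG, the germ-cell enzyme, at 1.32 FPKM in the HepG2-labelled libraries, with 0, 0 and 0.0473 FPKM in the Huh7-labelled libraries. The windows from 250 bases before to 50 bases after each gene's start are shown because these 3 promoters are related in sequence while the listed levels of their genes differ widely. They are from RefSeq (GRCh38.p14, plus strand, chromosome 2), at chr2:232378501-232378800 for ALPP, chr2:232406594-232406893 for ALPG and chr2:232455903-232456202 for ALPI, and capitals mark bases that differ from the aligned base of ALPP. Lower case marks bases equal to the aligned base of ALPP and also bases with no aligned base there.
ALPP: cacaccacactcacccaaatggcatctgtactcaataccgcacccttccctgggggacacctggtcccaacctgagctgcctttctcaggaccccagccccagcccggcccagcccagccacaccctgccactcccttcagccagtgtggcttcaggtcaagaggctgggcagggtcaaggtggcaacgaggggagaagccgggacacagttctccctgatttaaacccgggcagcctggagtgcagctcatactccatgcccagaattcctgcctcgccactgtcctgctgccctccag
ALPG: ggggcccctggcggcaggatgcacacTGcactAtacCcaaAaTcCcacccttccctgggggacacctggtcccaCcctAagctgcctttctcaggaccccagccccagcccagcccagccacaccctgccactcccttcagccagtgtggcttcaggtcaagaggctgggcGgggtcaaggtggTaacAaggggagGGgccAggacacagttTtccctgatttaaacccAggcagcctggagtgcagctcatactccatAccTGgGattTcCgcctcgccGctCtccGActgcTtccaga
ALPI: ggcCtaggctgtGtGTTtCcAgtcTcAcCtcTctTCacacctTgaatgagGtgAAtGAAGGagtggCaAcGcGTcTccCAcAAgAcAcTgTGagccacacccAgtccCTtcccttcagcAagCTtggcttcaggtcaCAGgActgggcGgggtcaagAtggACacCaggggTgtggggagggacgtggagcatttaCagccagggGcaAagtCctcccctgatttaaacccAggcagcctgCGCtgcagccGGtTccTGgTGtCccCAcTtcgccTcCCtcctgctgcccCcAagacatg
Of 278 aligned bases ALPG had 250 in common with ALPP (89.9%), and of 262 aligned bases ALPI had 185 in common with ALPP (70.6%). The closest pair of windows, ALPP and ALPG, was not the pair of highest levels, ALPI and ALPP. The genes themselves are also related in sequence, and no source used here says how fragments that fit more than 1 of them were counted, so the split of level among the 3 is uncertain.

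Keratins, the intermediate filaments of epithelia, were all higher in the HepG2-labelled libraries where they could be tested. All 8 tested keratins of 21 were at least 2-fold higher there, against a background of 15.2%, with a median difference of 4.13, and 3 of them were at 1 FPKM or more in both lines. The filament pair of simple epithelia was abundant: KRT8 was at 337, 342 and 330 against 21.6, 19.9 and 20.1 FPKM and KRT18 at 323, 324 and 316 against 15.3, 15.6 and 15.5 FPKM. KRT17, a keratin of basal and stressed epithelium, was at 173, 169 and 165 against 0.0369, 0.0569 and 0.0772 FPKM, and KRT80, a keratin of many differentiated epithelia, at 82.5 and 0.0313 FPKM. The hair keratins KRT81 (1.75 FPKM against 0) and KRT86 (1.48 against 0.0498 FPKM) are close copies of each other and were low. Other filament genes did not follow the keratins. LMNA, which encodes the lamins of the nuclear envelope in differentiated cells, was higher in the HepG2-labelled libraries (120 against 15.8 FPKM), LMNB2 in the Huh7-labelled libraries (88.9 against 30.5 FPKM), and VIM, vimentin, the filament of mesenchymal cells, was high in both, at 77.2 ± 3.22 and 60.7 ± 0.229 FPKM, a difference of 0.34 that turned to -0.082 under quantile normalization. NEFL and NEFM, the light and medium neurofilaments, were at 22.5 and 5.66 FPKM in the Huh7-labelled libraries and at 0 in the HepG2-labelled libraries, while the heavy chain NEFH was at 5.02 FPKM in the HepG2-labelled and 0.0891 FPKM in the Huh7-labelled libraries.

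Marker lists of other tissues gave a mixed identity for each line. The squamous and basal list had 4 of 5 tested members at least 2-fold higher in the HepG2-labelled libraries, among them SFN, the stratifin of keratinocytes, at 191 and 1.18 FPKM, while DSC3, a desmosomal cadherin of the same epithelia, was higher in the Huh7-labelled libraries (7.02 against 0.0386 FPKM) and 6 of the 18 members had no fragment at all. The neuronal and neuroendocrine list had 6 of 9 tested members higher in the Huh7-labelled libraries, with NCAM1 at 5.09 and 0.0142 FPKM, and 3 in the HepG2-labelled libraries, with ENO2, the neuronal enolase, at 64.6 and 6.09 FPKM. All 6 of the former were at 1 FPKM or more on average only in the Huh7-labelled libraries, and ENO2 was the 1 member at that level in both lines. The kidney list had 6 of 8 tested members higher in the Huh7-labelled libraries, including the nephron-progenitor factor SALL1 (8.24 FPKM against 0) and, at lower levels, WT1 (2.79 FPKM against 0) and PAX2 (1.31 FPKM against 0). Of the 8, 5 were at 1 FPKM or more on average only in the Huh7-labelled libraries. Of the 2 at that level in both lines, 1 was at least 2-fold higher in the Huh7-labelled libraries. The list's largest difference was in the other direction, with SLC12A3, the sodium chloride cotransporter of the distal tubule, at 39.6, 41.2 and 41.9 FPKM in the HepG2-labelled and 0.0187, 0.0192 and 0.0391 FPKM in the Huh7-labelled libraries. The summed level of the list was 57.3 to 58.8 FPKM in the HepG2-labelled and 57.1 to 58.8 FPKM in the Huh7-labelled libraries. The fibroblast list had 8 of 12 tested members higher in the HepG2-labelled libraries, with S100A4, LUM and COL5A1 the most different, and 3 higher in the Huh7-labelled libraries, COL6A1, COL6A2 and SPARC. Endothelial and leukocyte lists reached the filter with 1 of 10 and 1 of 14 members. In bulk RNA, fewer cells of a type and less RNA per cell cannot be told apart.

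Germline and early-embryo genes differed between the lines as well. Of 26 cancer-testis genes, 7 were tested and 6 were at least 2-fold higher in the HepG2-labelled libraries, with none so in the Huh7-labelled libraries. Of the 7, 5 were at 1 FPKM or more on average only in the HepG2-labelled libraries. Of the 2 at that level in both lines, 1 was at least 2-fold higher there. MAGEB2, a member of the MAGE family of testis antigens, was at 96.5, 95.8 and 89.0 against 24.5, 24.8 and 24.9 FPKM. MAGEA12 was at 18.6 FPKM against 0 and PAGE1 at 20.4 FPKM against 0, and MAGEA6 and MAGEA3, near-identical copies whose split is uncertain, were at 51.3 and 34.5 FPKM against 0.116 and 0.297 FPKM. Pluripotency genes went the other way in 4 of 6 tested members, with DNMT3B, the de novo DNA methyltransferase of the early embryo, at 21.8 and 3.47 FPKM in the Huh7-labelled and HepG2-labelled libraries, and SOX2, a core factor of stem and neural progenitor cells, at 3.73 FPKM and 0. POU5F1 was the 1 member at least 2-fold higher in the HepG2-labelled libraries, by 1.61 on the log2(FPKM + 1) scale. Of the 6, 3 and 2 were at 1 FPKM or more on average only in the Huh7-labelled and only in the HepG2-labelled libraries, and 1, DNMT3B, in both.

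Both lines lacked the classical epithelial cadherin and kept the neural one. CDH1, E-cadherin, was at 0.0762, 0.0320 and 0.0450 FPKM in the HepG2-labelled and 0.383, 0.327 and 0.401 FPKM in the Huh7-labelled libraries, under the filter in both. EPCAM, an adhesion molecule of simple epithelia, was likewise low, at a mean of 0.0460 and 0.454 FPKM. CDH2, N-cadherin, was at 21.8, 21.5 and 21.0 against 12.4, 11.2 and 11.6 FPKM, a difference of 0.82 ± 0.04. Of 23 cadherins 5 were tested, with CDH13, a cadherin without a cytoplasmic tail, at 2.41 and 0.00172 FPKM and CDH4, R-cadherin, at 0.0730 and 3.15 FPKM. Of 8 tested desmosome components, 3 and 2 were at least 2-fold higher in the HepG2-labelled and Huh7-labelled libraries. Plaque proteins that link cadherins to the cytoskeleton were on the HepG2-labelled side: JUP, plakoglobin, at 164, 173 and 159 against 14.9, 13.8 and 14.7 FPKM, PKP3, a plakophilin, at 52.2 and 0.852 FPKM, and CTNNA1, alpha-catenin, at 75.7 and 22.4 FPKM. Beta-catenin, CTNNB1, was 1.5-fold higher in the Huh7-labelled libraries (45.9 against 30.7 FPKM).

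Cell junctions had members on both sides. Of 13 tested claudins and tight junction proteins, 5 were at least 2-fold higher in the HepG2-labelled libraries and 4 in the Huh7-labelled libraries. Of the 13, 5 and 4 were at 1 FPKM or more on average only in the HepG2-labelled and only in the Huh7-labelled libraries. None of the 4 at that level in both lines was at least 2-fold apart. CLDN1 and CLDN7, sealing claudins, were at 8.23 and 9.89 FPKM in the HepG2-labelled and 0.0269 and 0.271 FPKM in the Huh7-labelled libraries. JAM3 (15.4 against 0.511 FPKM) and OCLN, occludin (2.73 against 0.134 FPKM), were higher in the Huh7-labelled libraries. Connexins, the channels of gap junctions, had 3 of 9 tested members at least 2-fold higher in each line. None of the 3 at 1 FPKM or more on average in both lines was at least 2-fold apart. GJA1, the broadly expressed connexin of mesenchyme and heart, was at 16.9, 17.7 and 17.6 FPKM in the Huh7-labelled libraries and 0.0788, 0.0193 and 0.0610 FPKM in the HepG2-labelled libraries, whereas GJB5, a connexin of skin, was at 2.89 FPKM in the HepG2-labelled libraries and at 0 in the Huh7-labelled libraries.

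Integrins, the receptors for the extracellular matrix, differed by chain. All 3 tested beta chains were at least 2-fold higher in the HepG2-labelled libraries, and of the 10 tested alpha chains 4 were so there and 2 in the Huh7-labelled libraries. ITGB1, the beta chain that most matrix receptors share, was at 182, 184 and 178 against 18.6, 18.5 and 18 FPKM. Its partners ITGA3, a laminin receptor chain, and ITGA5, the fibronectin receptor chain, were at 36.3 and 67.9 FPKM against 1.19 and 8.35 FPKM. ITGA4, a chain known from leukocytes and neural crest, was at 1.64 FPKM in the Huh7-labelled and 0.0117 FPKM in the HepG2-labelled libraries. Of 18 tested adhesion molecules of the immunoglobulin and related families, 5 and 2 were at least 2-fold higher in the HepG2-labelled and Huh7-labelled libraries. L1CAM, an immunoglobulin-family molecule of axons and invasive carcinomas, was at 154, 157 and 157 against 1.22, 0.793 and 0.797 FPKM, CD44, the hyaluronan receptor, was at 21.3, 21.0 and 21.1 against 0, 0 and 0.0121 FPKM, and MCAM, an adhesion molecule of melanoma and vessels, was at 57.1 and 5.47 FPKM. NCAM1 and CADM1, homophilic adhesion molecules of neurons and other tissues, stood on the Huh7-labelled side, CADM1 at 8.96 and 0.00203 FPKM.

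Many genes of the matrix that these receptors bind were also higher in the HepG2-labelled libraries. Of 8 tested laminin chains 5 were at least 2-fold higher in the HepG2-labelled libraries and none in the Huh7-labelled libraries, with LAMB3, a chain of epidermal laminin, at 68.5, 74.4 and 68.4 against 0.332, 0.418 and 0.335 FPKM and LAMA5, the alpha chain of most epithelial basement membranes, at 101 and 15 FPKM. Of 20 tested collagens, 12 and 4 were at least 2-fold higher in the HepG2-labelled and the Huh7-labelled libraries, and among the 11 at 1 FPKM or more in both lines, 7 and 1. COL5A1, which starts fibril assembly, was at 182, 181 and 184 against 7.73, 7.62 and 8.05 FPKM, and COL12A1 and COL7A1, the latter forming the anchoring fibrils of skin, were at 69.9 and 55.2 FPKM against 0.393 and 0.467 FPKM. The chains of collagen VI were the main exception, with COL6A1 at 5.73 and 38.2 FPKM and COL6A2 at 0.0459 and 14.5 FPKM in the HepG2-labelled and Huh7-labelled libraries. Of 25 other matrix proteins tested, 16 were at least 2-fold higher in the HepG2-labelled libraries, including EFEMP1, a fibulin (122 against 1.29 FPKM), LOXL2, a crosslinking oxidase (122 against 3.11 FPKM), LUM, lumican (35.4 against 0.223 FPKM), and TGFBI (23.6 against 0.00997 FPKM). The 6 higher in the Huh7-labelled libraries included NID1, nidogen of basement membranes, at 52.1, 54.6 and 51.9 against 0, 0.0112 and 0 FPKM, VCAN, versican (7.77 FPKM against 0), and SPARC (8.50 against 0.0655 FPKM).

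Proteoglycans and proteases were divided. Syndecan SDC1 was at 40.8 and 7.5 FPKM and the glypican GPC1 at 25.4 and 9.95 FPKM in the HepG2-labelled and Huh7-labelled libraries, while GPC4, like GPC3, was at 0 in the HepG2-labelled libraries and at 14.9, 14.9 and 15.1 FPKM in the Huh7-labelled libraries. PLAUR, the receptor of urokinase, was at 21.2 and 1.74 FPKM and TIMP2, an inhibitor of matrix metalloproteases, at 82.5 and 9.75 FPKM. ADAMTS1, which cleaves versican, was at 4.55 and 50.6 FPKM, MMP2, a gelatinase, at 0.00924 and 4.01 FPKM and PLAT, tissue plasminogen activator, at 1.42 and 12 FPKM, all higher in the Huh7-labelled libraries. Eph receptors and ephrins, which set boundaries between neighbouring cells, had 11 of 17 tested members at least 2-fold higher in the Huh7-labelled libraries, against a background of 13.2%, with EPHA7 at 0.0277 and 6.60 FPKM. Of those 17, 8 reached 1 FPKM on average only in the Huh7-labelled libraries, and among the 9 that did so in both lines 2 and 3 were at least 2-fold higher in the HepG2-labelled and Huh7-labelled libraries. The 2 higher in the HepG2-labelled libraries were a ligand and its receptor, EFNA1 (81.4, 78.5 and 76.5 against 7.73, 7.88 and 8.56 FPKM) and EPHA2 (40.2 against 7.53 FPKM).

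**Figure D3:**
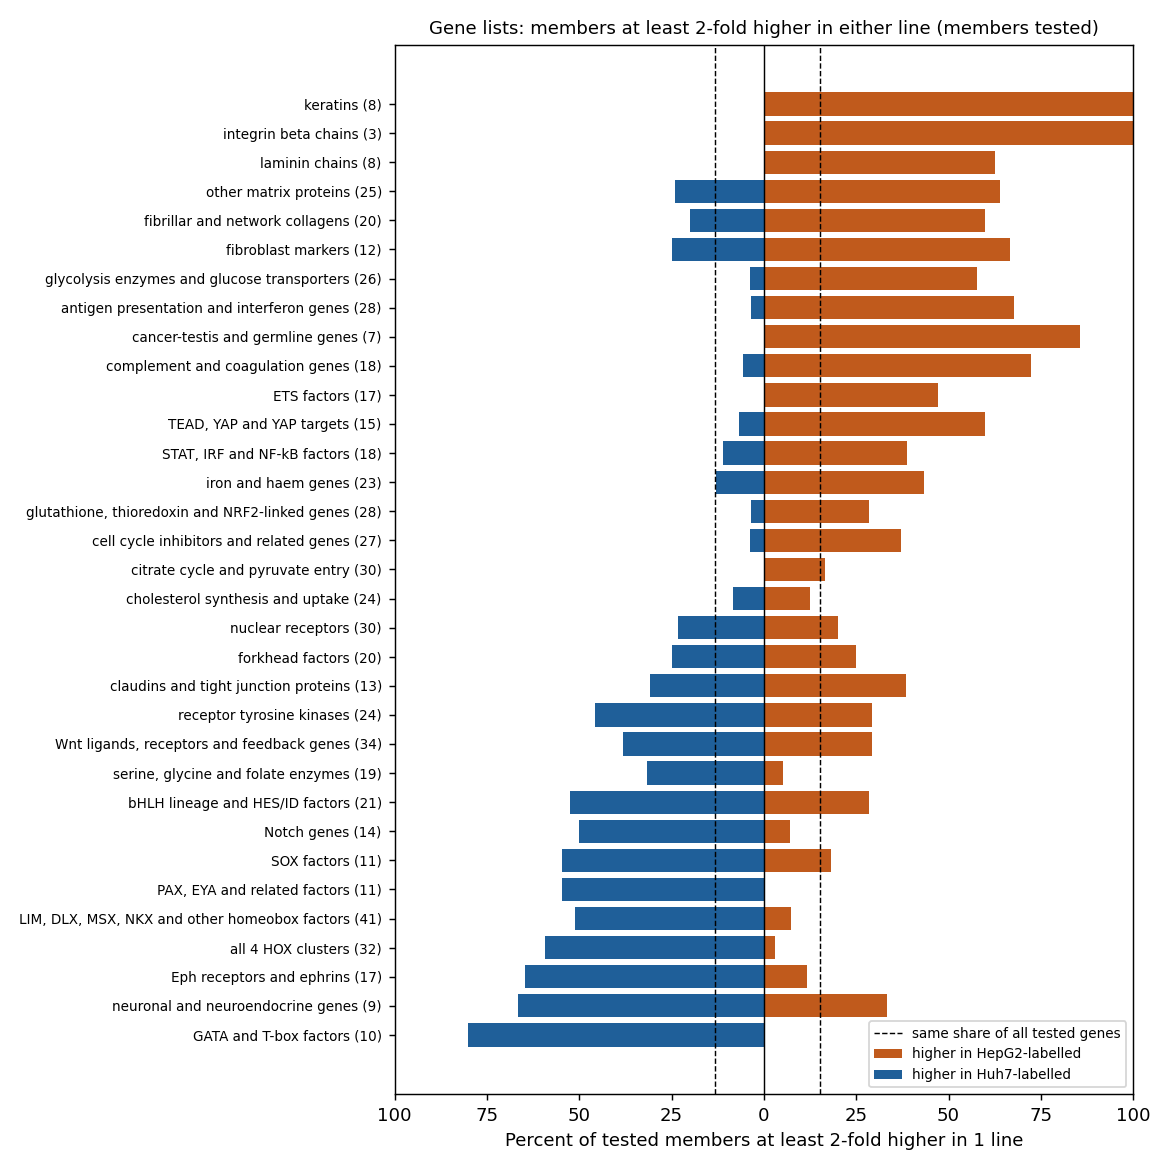
Percent of tested members of each gene list shown that were at least 2-fold higher in the HepG2-labelled libraries (bars to the right) or in the Huh7-labelled libraries (bars to the left), with the number of members tested in brackets. Dashed lines mark the same share of all 14120 tested genes, 15.2% and 13.2%, and lists of keratins, matrix and glycolysis extend to the right while homeobox, GATA, Notch and Eph lists extend to the left.

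Transcription factors as a class were more often at least 2-fold higher in the Huh7-labelled libraries. By the deposited table's own annotation of factor families, 996 of 1548 factors were tested, and 113 were at least 2-fold higher in the HepG2-labelled libraries against 236 in the Huh7-labelled libraries, which is beside backgrounds of 15.2% and 13.2%. Homeobox factors made up much of this, with 7 and 63 of 114 tested members and a median difference of -1.22. C2H2 zinc finger factors, the largest family, had 20 and 66 of 377. ETS factors had 8 and 0 of 17, STAT factors 5 and 0 of 7, and the E2F family of cell-cycle factors had no member at least 2-fold apart among 10 tested. Factors are often low, and 188 of the 996 were at 1 FPKM or more on average only in the Huh7-labelled libraries against 57 only in the HepG2-labelled libraries. Among the 751 at 1 FPKM or more in both, 74 and 87 were at least 2-fold higher in the HepG2-labelled and Huh7-labelled libraries.

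HOX genes, which lie in 4 clusters and record a cell's position along the body axis, were present in both lines at different levels. Of 39 genes 32 were tested, 19 were at least 2-fold higher in the Huh7-labelled and 1 in the HepG2-labelled libraries, with a median difference of -1.10. Among the 24 at 1 FPKM or more in both lines, the counts were 11 and 1. In the HOXA cluster 8 of 11 genes were at least 2-fold higher in the Huh7-labelled libraries. HOXA5 was at 39.8, 40.7 and 42.7 FPKM there against 2.84, 2.74 and 2.81 FPKM, HOXA9 at 17.5 and 1.29 FPKM, and HOXA13, the last of the cluster, was 1.86-fold higher in the HepG2-labelled libraries (9.94 against 5.34 FPKM). HOXB9 had the largest difference in its cluster, at 54.9, 54.0 and 52.6 FPKM in the Huh7-labelled against 5.83, 6.20 and 5.49 FPKM in the HepG2-labelled libraries, while HOXB7 was at 12.7 FPKM in the Huh7-labelled and 15.6 FPKM in the HepG2-labelled libraries. In the HOXC cluster HOXC4 was higher in the Huh7-labelled libraries (12.3 against 0.919 FPKM) and HOXC10 in the HepG2-labelled libraries (45.9, 46.6 and 44.5 against 10.2, 10.7 and 8.83 FPKM). All 5 tested HOXD genes were at least 2-fold higher in the Huh7-labelled libraries, HOXD13 most of all, at 34.9, 35.5 and 38.4 against 0.270, 0.206 and 0.217 FPKM. Antisense transcripts overlap many HOX genes and the libraries do not mark strand, so their fragments cannot be told apart from those of the genes.

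**Figure D4:**
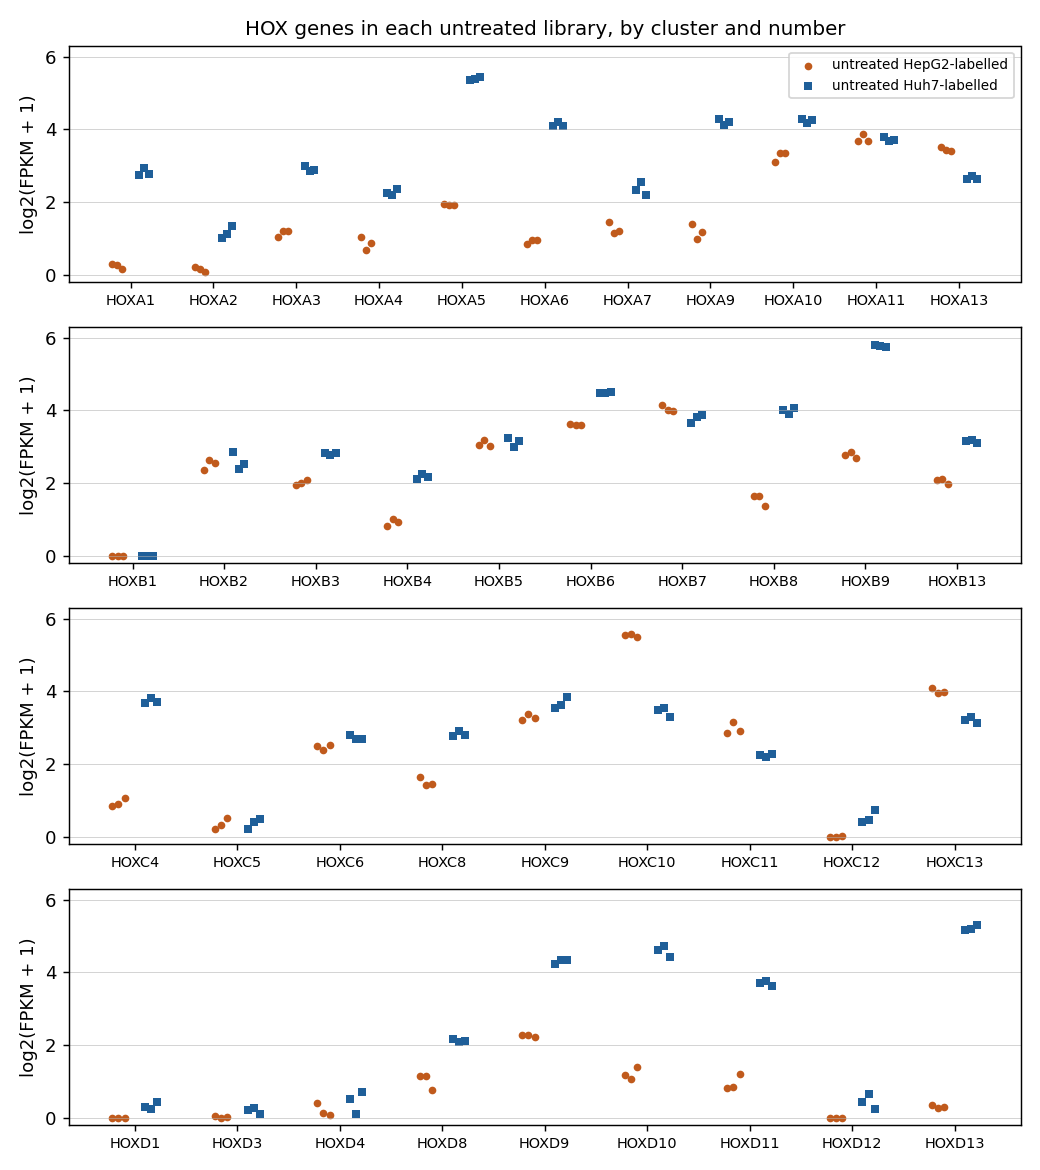
Level of each HOX gene in the 6 untreated libraries, as log2(FPKM + 1), by cluster and gene number, with HepG2-labelled libraries as circles and Huh7-labelled libraries as squares. HOXD13, HOXB9 and HOXA5 are the highest of the Huh7-labelled points in their clusters, and HOXC10 is the only HOX gene at least 2-fold higher in the HepG2-labelled libraries.

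Other developmental factors were also more often on the Huh7-labelled side. Outside the HOX clusters the homeobox family had 6 and 44 of 83 tested members at least 2-fold higher in the HepG2-labelled and Huh7-labelled libraries. Of the 83, 41 were at 1 FPKM or more on average only in the Huh7-labelled and 4 only in the HepG2-labelled libraries, and among the 38 at that level in both the counts were 2 and 9. DLX2, a factor of forebrain and jaw, was at 22.5, 24.8 and 23.6 FPKM there against 1.06, 0.865 and 1.43 FPKM, and NKX6-1 (6.08 FPKM) and BARX1 (6.5 FPKM) were at 0 in the HepG2-labelled libraries. HHEX, a homeobox factor of liver and blood progenitors, was at 6.32 FPKM in the HepG2-labelled and 0.366 FPKM in the Huh7-labelled libraries, and PITX1, a hindlimb factor, was at 85.7 and 29.9 FPKM. All 8 of the GATA and T-box factors that differed at least 2-fold, of 10 tested, were higher in the Huh7-labelled libraries, although 5 of the 10 were at 1 FPKM or more on average there alone and 3 of the other 5 were at least 2-fold higher there. In this group were GATA4, a factor of heart and endoderm, at 10.7, 10.9 and 11.1 FPKM against 0, and GATA3 at 10.8 and 0.849 FPKM. GATA2, a factor of blood, endothelium and trophoblast, was high in both lines, at 27.1 ± 1.03 and 28.9 ± 1.59 FPKM with overlapping groups. In the list of PAX, EYA and related factors 6 of 11 tested members were higher in the Huh7-labelled libraries, and none in the HepG2-labelled libraries. Of these 11, 4 were at 1 FPKM or more on average only in the Huh7-labelled libraries, and 2 of the 7 at that level in both lines were at least 2-fold higher there.

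SOX and forkhead factors had members on both sides, 2 and 6 of 11 and 5 and 5 of 20 tested ones at least 2-fold higher in the HepG2-labelled and Huh7-labelled libraries. SOX8 was at 5.35 FPKM in the Huh7-labelled and SOX17, a factor of endoderm and endothelium, at 2.82 FPKM in the HepG2-labelled libraries, each at 0 in the other. FOXL2, a factor of the ovary, was at 12.2 FPKM in the HepG2-labelled and 0.102 FPKM in the Huh7-labelled libraries. FOXC1 and FOXC2, related factors of mesoderm, differed in opposite directions, with FOXC1 at 18.8 and 53.4 FPKM and FOXC2 at 9.67 and 1.25 FPKM in the HepG2-labelled and Huh7-labelled libraries.

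All 7 STAT factors, which carry cytokine signals to the nucleus, were higher in the HepG2-labelled libraries, 5 of them at least 2-fold. Other families of signal-responsive factors were divided, with 1 and 2 of 9 tested Rel homology factors and 1 and 2 of 6 tested IRF factors at least 2-fold higher in the HepG2-labelled and Huh7-labelled libraries. STAT5A was at 10.2, 11.2 and 11.1 FPKM against 0, 0 and 0.0315 FPKM, and STAT3 at 33.2, 33.0 and 32.4 against 4.29, 4.70 and 4.30 FPKM. The ETS factor ELF3, specific to epithelia, was at 21.6 and 0.0272 FPKM, ETV4 at 6.63 and 0.0718 FPKM and ETS2 at 31.2 and 5.97 FPKM. ESRP2, an epithelial splicing regulator, was at 15.6 and 0.0951 FPKM, and SNAI2, a repressor of CDH1, was higher in the Huh7-labelled libraries (13 against 3.76 FPKM). AP-1 factors, the dimers of FOS and JUN proteins, had 6 and 4 of 13 tested members at least 2-fold higher in the HepG2-labelled and Huh7-labelled libraries. FOSL2 (52.4 against 1.57 FPKM), JUNB (83.7 against 6.95 FPKM) and FOS (10.001 against 0.263 FPKM) were higher in the HepG2-labelled libraries, and JUN was higher in the Huh7-labelled libraries, at 114, 115 and 109 against 17.6, 16.3 and 18.8 FPKM. KLF5, a factor of proliferating epithelium, was at 42.0 and 5.21 FPKM, and KLF15 at 0.357 and 7.66 FPKM.

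YAP1, the coactivator at the end of the Hippo pathway, was at 182, 180 and 180 FPKM in the HepG2-labelled and 14.4, 15.1 and 13.9 FPKM in the Huh7-labelled libraries. Of 15 tested genes of the TEAD and YAP list, 9 were at least 2-fold higher in the HepG2-labelled libraries, with the receptor kinase AXL at 33.3 and 0.245 FPKM and the cofactor VGLL3 at 15.9 and 0.449 FPKM. The 1 member at least 2-fold higher in the Huh7-labelled libraries was AMOT, the YAP-binding scaffold described above. Among helix-loop-helix genes, HEY1, a target of Notch signalling, was at 5.72, 5.24 and 5.22 against 113, 113 and 111 FPKM and ID2 at 6.95 and 73.8 FPKM, both higher in the Huh7-labelled libraries, while BHLHE40, a repressor linked to low oxygen and the circadian clock, was at 113 and 9.71 FPKM and ID1 at 170 and 22.7 FPKM, both higher in the HepG2-labelled libraries. Nuclear receptors had 6 and 7 of 30 tested members at least 2-fold apart in the 2 directions. RARG (17.2 against 4.91 FPKM) and RARB (0.0483 against 3.37 FPKM), both retinoic acid receptors, were among them in opposite directions.

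Most genes of glycolysis were higher in the HepG2-labelled libraries. Of 26 tested enzymes and transporters, 22 were called higher there and 3 in the Huh7-labelled libraries, and 15 were at least 2-fold higher in the HepG2-labelled libraries and 1 in the Huh7-labelled libraries, with a median difference of 1.38 and a summed level of 6308 to 6571 against 2102 to 2125 FPKM. Among the 22 at 1 FPKM or more in both lines, 13 and 0 were at least 2-fold apart in the 2 directions, beside backgrounds of 10.9% and 6.01%. At the entry, the glucose transporters SLC2A1 and SLC2A3 were at 107, 102 and 102 and at 57.1, 51.8 and 52.5 FPKM in the HepG2-labelled libraries, against 13.5, 13.9 and 14.8 and 0.422, 0.530 and 0.588 FPKM. Further down the pathway, GAPDH was at 1974, 1912 and 1947 against 498, 496 and 485 FPKM, and ENO1, enolase, at 1064 and 410 FPKM. At the exit, SLC16A3, the lactate exporter of glycolytic cells, was at 96.9, 101 and 97.5 against 0.199, 0.297 and 0.208 FPKM. The 1 member higher in the Huh7-labelled libraries was SLC2A12, a low-abundance glucose transporter (1.41 against 0.165 FPKM). Of the genes of glycogen, PPP1R3C, a scaffold that activates glycogen synthase, was at 25.6 and 0.0232 FPKM, and GBE1, the branching enzyme, at 31.6 and 6.02 FPKM, whereas PYGL, glycogen phosphorylase, was at 57.8 and 72.1 FPKM.

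The citrate cycle differed less. Of 30 tested genes 17 were called higher in the HepG2-labelled and 10 in the Huh7-labelled libraries, beside 41% and 40.2% of all tested genes. At least 2-fold apart were 5 and 0, beside backgrounds of 15.2% and 13.2%. The median difference, 0.29, lies in the range tied to the scale, and so may the balance of 17 and 10. OGDH, a dehydrogenase of the cycle, was at 92.7, 95.6 and 92.8 against 18.6, 19 and 17.3 FPKM, SDHA at 75.8 and 24.0 FPKM, and PDK4, a kinase that shuts pyruvate out of the cycle, at 8.19 and 0.200 FPKM. MDH2, malate dehydrogenase, was 1.42-fold higher in the Huh7-labelled libraries. In fatty acid oxidation OXCT1, which activates ketone bodies for use as fuel and is low in hepatocytes, was at 74.8, 72.8 and 72.0 FPKM in the HepG2-labelled and 0.0275, 0.0142 and 0.0432 FPKM in the Huh7-labelled libraries, and ACADVL, which starts the oxidation of long chains, at 137 and 18.8 FPKM. ACADL, a related dehydrogenase, was at 0.00511 and 1.49 FPKM.

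Lipid synthesis had members on both sides. Of the 24 cholesterol genes, 11 were called higher in the HepG2-labelled and 10 in the Huh7-labelled libraries, with 3 and 2 at least 2-fold higher in the HepG2-labelled and Huh7-labelled libraries, and a median difference of -0.04. SQLE, squalene epoxidase, was higher in the Huh7-labelled libraries (33.0 against 13.4 FPKM). SREBF1, the main activator of fatty acid synthesis, was at 57.5 and 9.05 FPKM, but FASN, the synthase, was at 179 ± 4.29 and 149 ± 2.12 FPKM, a difference of 0.26 that was -0.013 under TPM scaling. SCD, the stearoyl desaturase, was 1.91-fold higher in the HepG2-labelled libraries. The elongases ELOVL4 (9.79 FPKM against 0) and ELOVL2 (10.3 against 1.003 FPKM) were higher in the Huh7-labelled libraries. Coat proteins of lipid droplets differed in opposite directions, with PLIN3 at 62.2 and 16.9 FPKM and PLIN2, the coat protein of liver droplets, at 0.0269 and 6.57 FPKM in the HepG2-labelled and Huh7-labelled libraries.

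Serine and folate metabolism stood on the Huh7-labelled side. Of 19 tested genes, 13 were called higher there, 6 at least 2-fold, against 5 and 1 in the HepG2-labelled libraries. PHGDH, the first enzyme of serine synthesis, was at 70.6, 67.5 and 65.6 against 17.8, 18.5 and 16.7 FPKM, and ALDH1L2, a mitochondrial folate enzyme, at 10.02 and 0.290 FPKM. SHMT1, the cytosolic hydroxymethyltransferase, was the 1 member at least 2-fold higher in the HepG2-labelled libraries (18.7 against 7.62 FPKM). The large neutral amino acid transporter SLC7A5 and its partner chain SLC3A2 were at 587 and 142 FPKM in the HepG2-labelled and 141 and 46.8 FPKM in the Huh7-labelled libraries. SLC7A3, a cationic amino acid transporter, was at 0 in the HepG2-labelled and 5.41 FPKM in the Huh7-labelled libraries, and CKB, brain creatine kinase, at 317 and 653 FPKM.

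Genes of iron storage were higher in the HepG2-labelled libraries, as were several genes of defence against oxidants. The ferritin chains FTH1 and FTL were at 1554, 1570 and 1480 and at 1753, 1735 and 1672 FPKM there, against 139, 150 and 149 and 394, 384 and 406 FPKM. TFR2, a sensor of transferrin iron in liver, was at 6.15 and 0.00397 FPKM, HFE, its partner in hepcidin control, at 14.6 and 0.400 FPKM and STEAP4, a metal reductase, at 13.8 and 0.00358 FPKM, while STEAP1 was at 0.182 and 3.24 FPKM. Of 23 tested iron and haem genes 10 and 3 were at least 2-fold higher in the HepG2-labelled and Huh7-labelled libraries. Genes of glutathione, thioredoxin and related defence had 8 and 1 of 28 tested members so. Only in the HepG2-labelled libraries were 5 of these 28 at 1 FPKM or more on average. Among the 22 at that level in both lines, 3 and 0 were at least 2-fold apart, beside backgrounds of 10.9% and 6.01%. NQO1, a quinone reductase under the factor NRF2, was at 62.6, 61.2 and 61.2 against 2.09, 1.99 and 2.25 FPKM, and AKR1C3, 1 of a family of close copies whose split is uncertain, at 20.3 FPKM against 0. ABCC2 and ABCC3, exporters of conjugates, were at 18.1 and 15.1 FPKM against 0.147 and 0.00610 FPKM, and MGST1, a membrane glutathione transferase, was at 17.7 FPKM against 0. GPX4, which reduces lipid peroxides, was 1.995-fold higher in the Huh7-labelled libraries (194 against 97.2 FPKM), and SLC7A11, the cystine transporter, was at 4.65 and 6.17 FPKM. Metallothioneins, small metal-binding proteins, had 3 of 4 tested members higher in the HepG2-labelled libraries, with MT2A at 189 and 15 FPKM.

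Retinoid and nucleotide genes also differed by member. DHRS3, which reduces retinal, and STRA6, a retinol carrier receptor, were at 27.4 and 6.88 FPKM in the HepG2-labelled and 2.01 and 0.471 FPKM in the Huh7-labelled libraries. CRABP2, which carries retinoic acid to the nucleus, was at 13.2, 15.4 and 13.6 against 154, 151 and 151 FPKM, and ALDH1A2, which makes retinoic acid, at 0.0185 and 4.99 FPKM. Of the NAD and nucleotide enzymes NNMT, which methylates nicotinamide, was at 46.8, 46.6 and 46.1 FPKM against 0.0198, 0 and 0 FPKM, NAPRT, which uses nicotinic acid, at 28.5 and 0.987 FPKM and CDA, cytidine deaminase, at 148 and 5.5 FPKM. MTAP, which salvages methylthioadenosine and is often lost with its neighbour CDKN2A in tumours, was present in both lines, at 3.18 ± 0.136 and 2.84 ± 0.202 FPKM (difference 0.12 ± 0.06, adjusted p = 0.0957 by limma, and -0.11 under TPM scaling). The other alkaline phosphatase, ALPL, of liver, bone and kidney, was at 0.0454 and 4.80 FPKM. PTGES and PTGS1, enzymes of prostaglandin synthesis, were at 107 and 16.2 FPKM in the HepG2-labelled and 3.27 and 0.0442 FPKM in the Huh7-labelled libraries.

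Growth factor receptors were divided between the lines. Of 24 tested receptor tyrosine kinases, 7 and 11 were at least 2-fold higher in the HepG2-labelled and the Huh7-labelled libraries, and of the 12 at 1 FPKM or more on average in both lines, 4 and 3. EGFR, the epidermal growth factor receptor, was at 51.9, 46.6 and 50.5 against 3.07, 3.51 and 3.53 FPKM, MET, the receptor of hepatocyte growth factor, at 46.4 and 8.58 FPKM and MST1R at 8.60 and 0.0602 FPKM. FLT4 (9.59 FPKM), FGFR2 (5.37 FPKM), KIT (5.27 FPKM) and MERTK (4.17 FPKM) were the Huh7-labelled counterparts, with none over 0.0612 FPKM on average in the HepG2-labelled libraries. Binding proteins of the insulin-like growth factors were likewise divided, with IGFBP3 (135 FPKM), IGFBP7 (87.4 FPKM) and IGFBP6 (29.0 FPKM) higher in the HepG2-labelled libraries and IGFBP2 at 12.8, 12.3 and 11.5 FPKM in the Huh7-labelled libraries against 0.

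Genes of the developmental signalling pathways were mixed. Of 14 tested Notch genes 7 were at least 2-fold higher in the Huh7-labelled and 1 in the HepG2-labelled libraries, with the receptor NOTCH3 at 15.1, 16.1 and 15.4 against 1.71, 1.87 and 1.74 FPKM and the ligand DLL1 at 5.31 FPKM against 0. Wnt genes had 10 and 13 of 34 tested members at least 2-fold higher in the HepG2-labelled and Huh7-labelled libraries, and 7 and 4 of the 21 at 1 FPKM or more on average in both lines. The ligands WNT7B (17.6 against 0.297 FPKM) and WNT5A (27.2 against 5.19 FPKM) were on the HepG2-labelled side. The antagonist SFRP1 (12 FPKM against 0), the nuclear factor LEF1 (7.73 FPKM against 0), the receptor FZD7 (27.9 against 3.47 FPKM) and the feedback gene NKD2 (10.3 against 0.149 FPKM) were on the Huh7-labelled side. BMP7, a bone morphogenetic protein of kidney, was at 14.9, 13.9 and 15.6 FPKM in the Huh7-labelled libraries and at 0 in the HepG2-labelled libraries, and TGFB1 was at 56.9 FPKM in the HepG2-labelled and 11.7 FPKM in the Huh7-labelled libraries.

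Interferon-linked and antigen presentation genes were higher in the HepG2-labelled libraries in 19 of 28 tested members at 2-fold or more, against 1 in the Huh7-labelled libraries. Among the 17 at 1 FPKM or more in both lines the counts were 10 and 0. BST2, tetherin, which holds budding viruses at the cell surface, was at 380, 407 and 378 against 6.34, 6.42 and 6.85 FPKM. IFITM3, which blocks viral entry, was at 331 and 3.57 FPKM, although the IFITM genes are close copies, and TAPBP, which helps load peptide on class I molecules, was at 61.6 and 3.68 FPKM. HLA-F, a non-classical class I gene, was the 1 member higher in the Huh7-labelled libraries (1.73 against 0.290 FPKM). IL18, a cytokine of epithelia and macrophages, was at 36.1, 33.9 and 36.3 against 0.0659, 0.0452 and 0.0689 FPKM. Complement and coagulation genes had 13 and 1 of 18, with CD55, a brake on complement at the cell surface, at 151 and 7.03 FPKM and CLU, clusterin, at 110 and 9.32 FPKM.

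Of 27 tested cell-cycle inhibitors and related genes, 16 were called higher in the HepG2-labelled and 8 in the Huh7-labelled libraries, with 10 and 1 at least 2-fold. The list also holds CDK4 and CCND2, which are not inhibitors, and the 1 was CCND2. At 1 FPKM or more on average in both lines were 23 of the 27. CDKN2A was at 55.7, 57.5 and 55.1 against 29.1, 27.5 and 26.8 FPKM, a difference of 0.99 ± 0.04, and CDKN2B, its neighbour, at 9.84 and 0.664 FPKM. CDKN1C, an imprinted inhibitor, was at 50.5 and 5.55 FPKM, PHLDA3, an inhibitor of AKT signalling, at 33.7 and 3.90 FPKM and GDF15, a secreted stress factor, at 22.9 and 0.141 FPKM. CCND2, cyclin D2, was at 17.0, 16.2 and 16.1 FPKM in the Huh7-labelled libraries and at 0 in the HepG2-labelled libraries.

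Differences were also described by position along the chromosomes. Neighbouring protein-coding genes at 1 FPKM or more in both lines were taken 20 at a time (hg38 coordinates of the deposited table), and the windows with the largest medians are given as a description. The highest median, 1.38, lay on chromosome 5 from SLC1A3 to MRPS30 (chr5:36606355-44820428), where 19 of 20 genes were higher in the HepG2-labelled libraries and 16 at least 2-fold. It included LIFR, the receptor of leukaemia inhibitory factor (19.8 against 4.62 FPKM), DAB2, an endocytic adaptor (24.6 against 1.49 FPKM), and PRKAA1, a catalytic chain of AMP-activated kinase (25.5 against 7.27 FPKM). The exception was HMGCS1, an enzyme of cholesterol synthesis (11.9 against 22.5 FPKM). Another window of chromosome 5, from MED10 to BASP1 (chr5:6371881-17276843), had a median of 1.35 and ended with BASP1, a membrane protein of growth cones, at 410, 427 and 419 against 5.21, 4.31 and 3.84 FPKM. From the first such gene of chromosome 5 to MRPS30, 63 of 68 genes were higher in the HepG2-labelled libraries and 42 at least 2-fold, with a median of 1.22, while the other 359 genes of the chromosome had a median of -0.09. The end of this stretch was set at the end of the highest window, which in part fixes the contrast with the rest of the chromosome. On chromosome 13 the highest window, from KDELC1 to LAMP1 (chr13:102784281-113323672), had a median of 1.29. In the other direction the lowest median, -1.21, lay on chromosome 7 from TRIM24 to CASP2 (chr7:138460334-143307696), where none of the 20 genes was higher in the HepG2-labelled libraries and 13 were at least 2-fold lower, among them HIPK2, a nuclear kinase (3.85 against 12.8 FPKM), and AGK, a mitochondrial lipid kinase (3.81 against 11.9 FPKM). Whole chromosomes had medians from -0.38 for chromosome 4 to 0.28 for chromosome 18.

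**Figure D5:**
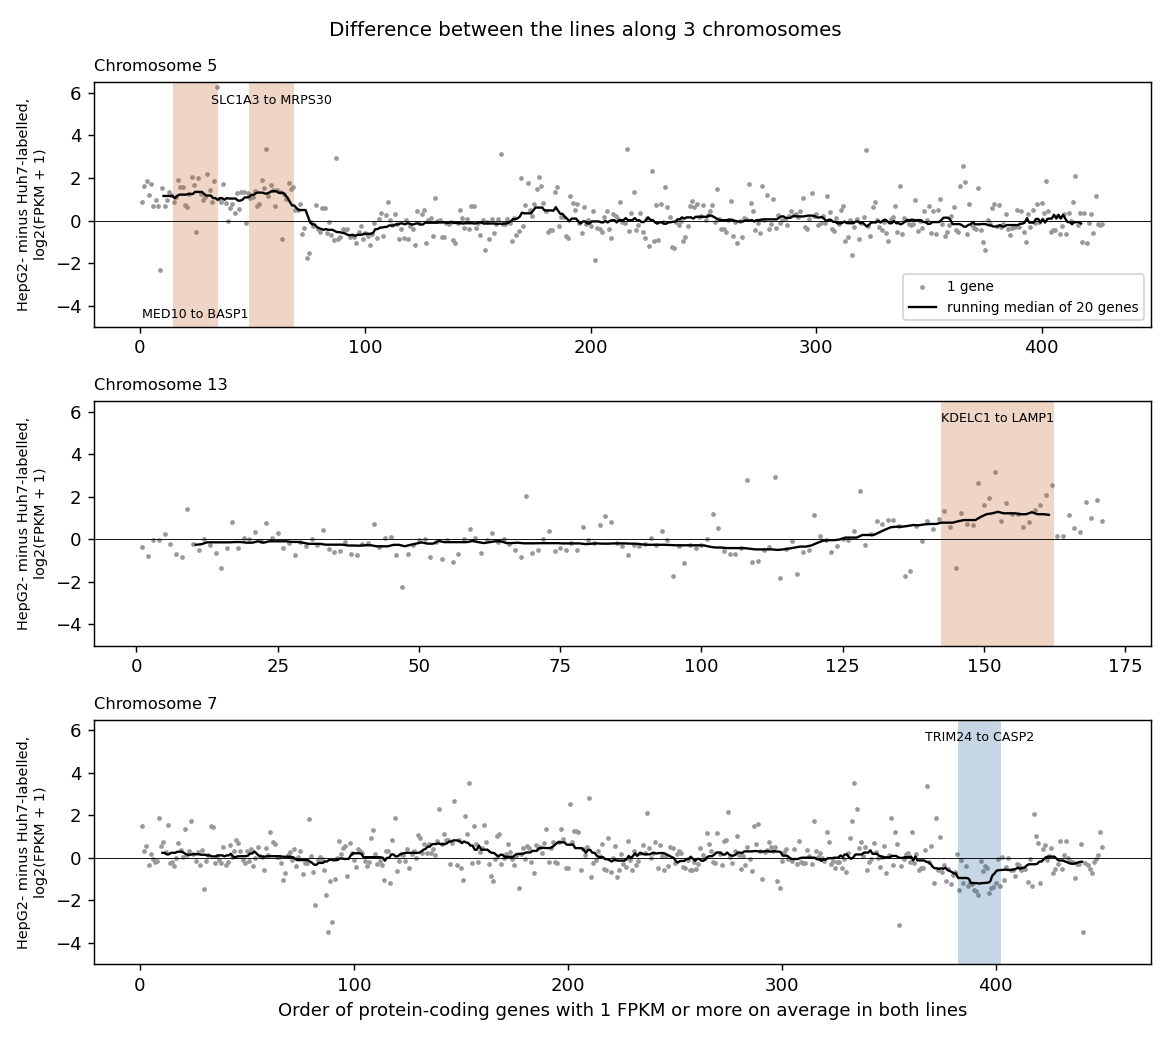
Difference between the lines on the log2(FPKM + 1) scale for protein-coding genes at 1 FPKM or more on average in both lines, in their order along chromosomes 5, 13 and 7, with the running median of 20 genes as a line and the windows described in the text shaded. The first 68 genes of chromosome 5 sit mostly above 0, with a median of 1.22, and the shaded window of chromosome 7 sits below 0.

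Most of the differences were also present in the libraries given geniposide, which were not used in calling the genes. Those libraries are of the same 2 lines and the same deposited table, so the agreement is no independent support. The same shares over all tested genes were not computed. Of the 4013 genes at least 2-fold apart in the untreated cells, 3985 differed in the same direction between the treated HepG2-labelled and Huh7-labelled libraries, and 3376 were at least 2-fold apart there too. ALPI differed by 10.02 in the untreated and 9.78 in the treated libraries on the log2(FPKM + 1) scale, KRT7 by 8.13 and 6.21, CPS1 by 6.22 and 6.23, IRS4 by -7.78 and -6.68, and HOXD13 by -4.92 and -4.42. The stress-responsive factors, JUN and ATF3, had wider gaps in the treated libraries, at -2.61 and -4.70 for JUN and -1.33 and -4.48 for ATF3, and whether these gaps differ was not tested.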

How the data were processed

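Poly(A) RNA was sequenced from 3 untreated samples of each line, grouped by the labels. The deposited table holds FPKM values that the authors computed. Base calling with CASAVA, read trimming with fastp and the hg38 genome are named in the submitters' processing notes, while aligner and counter are named in no source used here. FPKM multiplied by gene length gave whole multiples of 1 fragment for 100% of values within 0.05 in every library, from which fragment totals of 15056655 to 16880930 were recovered. The divisor behind FPKM was 1.09 to 1.10 times that total in the Huh7-labelled and 0.895 to 0.912 times in the HepG2-labelled libraries. Precision is limited by counting at low levels, where 3 fragments of a gene of 1 kilobase were worth 0.173 to 0.208 FPKM, and floors cover counting error only.

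Genes that reached 1 FPKM in 3 or more of the 6 libraries were tested with limma 3.58.1 (R 4.3.3, with an intensity trend) on log2(FPKM + 1), with 4 residual degrees of freedom and Benjamini-Hochberg adjustment over all 14120 genes. The pseudocount makes fold changes of low genes smaller than their ratios. The fit was also run on simulated data in which few genes differed, unlike in these data, so that run does not speak to their setting. Alternatives were another pseudocount, no filter or a filter at 5 FPKM, TPM, median-of-ratios and quantile scaling, voom on the recovered fragments, all 12 samples in the fit, a replicate block and leaving out each library.

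The comparison and its gene lists were chosen with earlier results of these data known. Of 1621 list symbols 1619 were found. Genes were named by rule: the 15 largest differences in each direction among protein-coding genes without overlap at 5 FPKM or more; up to 4 members per direction and the 2 most abundant members of each list; members at 0 in a group; 12 fixed marker genes; and genes of the windows by position. CTNNB1, GPX4, HOXA13, HOXB7, KDELC1, KRT86, LAMP1, SERPINA1 and SLC7A11 were chosen outside it after their values were seen. Promoters are RefSeq sequences (GRCh38.p14) aligned in pairs with Biopython 1.88. Y-linked genes and the X-inactivation transcript are not reported, and some genes that the rule would name are not reported here.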

Additional observations from a re-analysis of the deposited data

How the results depend on the processing

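Counts over all genes kept within 1.5 times of 11463 called genes, 5786 and 5677 by direction, and 2148 and 1865 at 2-fold under every alternative run, with these exceptions. A filter at 5 FPKM tested fewer genes, 8593, and gave 7453 called genes, 3318 higher in the Huh7-labelled libraries and 867 at least 2-fold higher there. TPM scaling gave 2983 and voom on the recovered fragments 3271 genes at least 2-fold higher in the Huh7-labelled libraries. The median difference was -0.27 and -0.29 under these settings, neither of which keeps the divisor behind FPKM. That divisor was 1.09 to 1.10 times the fragment total in the Huh7-labelled and 0.895 to 0.912 times in the HepG2-labelled libraries. Why it differed was not tested. Leaving out each library in turn gave 11076 to 11226 called genes, 5605 to 5676 and 5445 to 5578 by direction, and 2144 to 2168 and 1847 to 1875 at 2-fold. Among named genes, FASN changed sign under TPM scaling (-0.013), quantile normalization (-0.0086) and voom (-0.016), MTAP under TPM scaling (-0.11) and voom (-0.12), and VIM under quantile normalization (-0.082). Of the 160 list counts, 17 moved under TPM scaling and 48 under the 5 FPKM filter. The medians of chromosomes 4 and 18 were -0.38 and 0.30 without genes below 5 FPKM.

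With the replicate block 11395 genes were called, 5737 and 5658 by direction, and 2148 and 1864 at 2-fold. Same-numbered libraries of the lines correlated at 0.0361 to 0.0918 in their deviations from the group means, each best with its own number. The labels do not say whether same-numbered samples were handled together, and whether they share more than a number was not tested. The planned comparison of promoter CpG content was void, since 10987 of 19917 protein-coding genes (55.2%) had a promoter sequence. Depth limits statements on genes of a few fragments, such as the liver products, to not detected or nearly so.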

Other observations

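Contractile genes, and cytokine genes apart from IL18, were not described above. Members of both lists were more often higher in the HepG2-labelled libraries. Of 7 tested smooth muscle and contractile genes of 14, 5 were at least 2-fold higher there and 0 in the Huh7-labelled libraries, beside 15.2% and 13.2% of all tested genes. MYL9, a regulatory light chain of myosin, was at 49.9, 52.2 and 48.0 FPKM in the HepG2-labelled libraries and at 0 in all 3 Huh7-labelled libraries. TPM2, a tropomyosin of actin filaments, was at 95.3, 98.7 and 95.7 against 3.06, 3.69 and 4.13 FPKM, without overlap. TAGLN, transgelin of smooth muscle, was lower, at 4.49 and 1.07 FPKM. Of 32 cytokines and chemokines 8 were tested, 6 and 1 at least 2-fold higher in the HepG2-labelled and Huh7-labelled libraries. Only in the HepG2-labelled libraries were 5 of the 8 at 1 FPKM or more on average, and 1 only in the Huh7-labelled libraries. Both lines had 2 members at that level, 1 of them at least 2-fold higher in the HepG2-labelled libraries. LIF, leukaemia inhibitory factor, was at 5.59, 4.42 and 5.62 against 0.116, 0.195 and 0.152 FPKM, and its receptor gene LIFR lies in the window of chromosome 5 with the highest median.

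Genes that mark intestinal epithelium were at or near 0 in the HepG2-labelled libraries despite ALPI. Of 14 members 2 were tested, both at least 2-fold higher in the Huh7-labelled libraries. CDX2, the homeobox factor of intestinal identity, was at 14, 13.5 and 12.5 FPKM in the Huh7-labelled libraries and at 0 in all 3 HepG2-labelled libraries. CDX1, its relative, and VIL1, villin of the brush border, had no fragment in any of the 6 libraries. ISL1, a homeobox factor of neurons, heart and pancreas, was at 3.65 FPKM in the Huh7-labelled libraries against 0.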
